A study of Mus musculus with 18 samples.

Results

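Ctgf and 6 genes of the pathway that runs through the coactivators YAP and TAZ and the TEAD transcription factors were followed in mouse brain messenger RNA. The 7 genes, Ctgf, Cyr61, Yap1, Wwtr1, Tead1, Amotl2 and Lats2, were picked by symbol out of 24405 rows of the deposited table, and Ctgf was picked because it was low in brains of young mice given apigenin. That contrast is therefore described here without a test. Whole brains came from C57BL/6N males, young at 6 months or old at 27 months of age. All mice drank water with 0.2% carboxymethylcellulose, a thickener, and the apigenin groups received the plant flavone apigenin at 0.5 mg/mL in it, while the vehicle groups received the thickened water alone. The 17 libraries compared were those of 4 young vehicle, 3 young apigenin, 5 old vehicle and 5 old apigenin mice, 1 library per mouse per the labels. Values are normalised read counts, and all 7 genes passed the filter of a mean of at least 10, which 15808 genes met and which defined the genes tested.

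YAP (gene Yap1) and TAZ (gene Wwtr1) carry signals of cell shape, contact and mechanical load into the nucleus, where they bind DNA through TEAD factors such as TEAD1. The Hippo kinases, LATS2 among them, phosphorylate YAP and TAZ and keep them out of the nucleus, and the angiomotin family protein AMOTL2 holds them in the cytoplasm. CTGF and CYR61 are secreted matricellular proteins of the CCN family, and their genes are widely used readouts of YAP and TAZ, as are Amotl2 and Lats2, which feed back on the pathway. Cyr61 is also an immediate early gene of the serum response, and in the cortex Ctgf marks neurons of layer 6b, the deepest layer. In brain, YAP and TAZ are known from astrocytes, neural progenitors, ependymal cells and vessels.

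Libraries held 28171596 to 41145635 reads assigned to genes. The neuronal gene Snap25, the myelin gene Mbp and the microglial gene Cx3cr1 were present in all 17 libraries, at 91951 to 109935, 96544 to 185437 and 1328 to 2068. Summed levels of 11 hindbrain and spinal cord genes, chiefly Hox genes, ran from 671 to 1703 with vehicle and 290 to 1546 with apigenin in young mice, and from 114 to 1586 with vehicle and 15.5 to 1494 with apigenin in old mice. Libraries therefore differed widely in these genes within every group. Group medians of the sum were 1175 in young vehicle, 365 in young apigenin, 199 in old vehicle and 448 in old apigenin libraries. This content was thus uneven between the groups too, although their ranges overlapped. Its part in the levels below was not tested. In such bulk tissue, fewer cells of a type and less RNA per cell cannot be told apart. Young apigenin replicate 3 is missing from these 17, since below the row of Mrpl14 its values stand beside the wrong gene names, with r = 0.995 against the mean of the other libraries up to that row and r = 0.555 after it. Ctgf, Cyr61, Amotl2 and Lats2 lie before that row, so this library can be read for 4 of the 7 genes. Around the row of Ctgf, over 100 rows on each side, its r was 0.995, where the lowest of the other libraries was 0.994.

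All 7 genes were expressed in every library. Per kilobase of annotated exon and averaged over the 17 libraries, Ctgf was the highest of the 7 at 377, on chromosome 10 (24595442 to 24598683, build GRCm38). Lats2 followed at 270 (chromosome 14, 57689662 to 57758388) and Cyr61 at 223 (chromosome 3, 145646976 to 145649981). Amotl2 stood at 185 (chromosome 9, 102716672 to 102733418) and Wwtr1 at 160 (chromosome 3, 57455649 to 57575910). Yap1 stood at 105 (chromosome 9, 7931999 to 8004596) and Tead1 at 63.2 (chromosome 7, 112679318 to 112906807). Some neighbours in this order overlapped in their spread. Cyr61 overlapped both Lats2 and Amotl2, the 3 standing at 268 ± 103, 271 ± 17.1 and 195 ± 28.4 in old vehicle mice (SD, n = 5), and in old apigenin mice Cyr61 stood below Amotl2, at 126 ± 75.4 against 183 ± 21.8 (SD, n = 5). Amotl2 and Wwtr1 overlapped too, at 178 ± 14.8 and 175 ± 6.96 in young vehicle mice (SD, n = 4). The merged length of all annotated exons exceeds that of any single transcript, so these levels are lower bounds and their order is approximate. The exons of Lats2 share 2955 bases with another model on the same strand, Gm49361. Ctgf and Yap1 share 665 and 116 bases with models on the other strand, and the labels do not state whether counting used strand.

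The promoter stretches of these genes are shown because TEAD factors bind the letters GGAATG, read as CATTCC on the other strand, and because the genes were grouped through TEAD. RefSeq promoter windows around the transcription start, on GRCm38.p6, were at hand for 5 of the 7 genes, and all 5 had the motif on either strand in at least 1 window. Among all 27025 genes with a window, 16.6% had it. This is a description of letters in a window, not of a bound site. For Cyr61 the 250 bases before the start follow, and for the others 30 bases around the motif, each 5′ to 3′ along the gene's strand, with the motif in capitals.
Cyr61, chr3:145649986-145650235, minus strand: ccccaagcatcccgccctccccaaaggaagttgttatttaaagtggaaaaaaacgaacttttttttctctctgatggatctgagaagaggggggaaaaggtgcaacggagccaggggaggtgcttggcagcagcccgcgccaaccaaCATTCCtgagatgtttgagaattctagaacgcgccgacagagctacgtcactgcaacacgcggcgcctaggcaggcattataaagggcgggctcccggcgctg
Amotl2, chr9:102717727-102717756, plus strand: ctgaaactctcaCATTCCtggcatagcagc
Wwtr1, chr3:57576029-57576058, minus strand: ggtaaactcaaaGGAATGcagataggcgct
Yap1, chr9:8004720-8004749, minus strand: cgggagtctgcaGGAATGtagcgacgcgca
Lats2, chr14:57746102-57746131, minus strand: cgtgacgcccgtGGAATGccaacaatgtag
Counted from the RefSeq start of its window, the motif began at base -103 in Cyr61, -136 in Wwtr1 and -141 in Yap1, all upstream. In Amotl2 it began at base -65, also upstream of the window's start, and in Lats2 at base 5. The Amotl2 and Lats2 stretches lie inside the gene spans given above, so their window starts are not the outer ends of those genes. Lats2 had 2 windows, of which 1 held the motif.

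Ctgf was highest in young vehicle brains. Its values there were 1335, 1230, 1204 and 1445, a mean of 1303 ± 110.0 (SD, n = 4). The 3 young apigenin libraries that chose the gene held 922, 970.4 and 987, a mean of 959.9 ± 33.9 (SD, n = 3). Every one of these lay below every young vehicle library, a log2 difference of -0.44, and since the gene was chosen for it no test is given. For orientation, in this contrast the groups did not overlap for 7.31% of tested genes, and limma with Benjamini-Hochberg adjustment called 0% of the 15808, with 490 genes at an unadjusted p under 0.05. The library not used in that choice went the other way. Young apigenin replicate 3 held 1375 (1299 reads), above the other 3 and between the lowest and the highest young vehicle library. With it the young apigenin mean was 1064 ± 209 (SD, n = 4), the groups overlapped, and the log2 difference was -0.31.

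With age, Ctgf levels were compared first in vehicle mice. Old vehicle libraries held 939, 1006, 1105, 1236 and 1025, a mean of 1062 ± 114 (SD, n = 5). The highest of them lay just above the lowest 2 young vehicle libraries, so the groups overlapped. The log2 difference of old from young vehicle mice was -0.30, and -0.35 to -0.25 without any 1 library. No test is given for it, because the young vehicle libraries also entered the contrast that chose Ctgf. Of the other 6 genes 0 passed with age in vehicle mice, where limma called 3.93% of the 15808 genes in either direction and 0.803% lower in old mice.

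Apigenin in old mice gives a comparison that shares no library with the choice of Ctgf. Old apigenin libraries held 944, 1042, 1076, 898 and 995.8, a mean of 991 ± 71.96 (SD, n = 5). They overlapped the old vehicle libraries nearly throughout, and the groups overlapped for each of the 7 genes, where 0.361% of tested genes had groups that did not. The log2 difference was -0.10, with a 95% interval of -0.26 to 0.06 (limma adjusted p = 0.986). Whether the apigenin difference in Ctgf differs between old and young mice was not tested. Old against young apigenin mice differed by 0.04 in Ctgf without young apigenin replicate 3 and by -0.09 with it, and no test is given because the young apigenin libraries chose the gene.

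**Figure D1:**
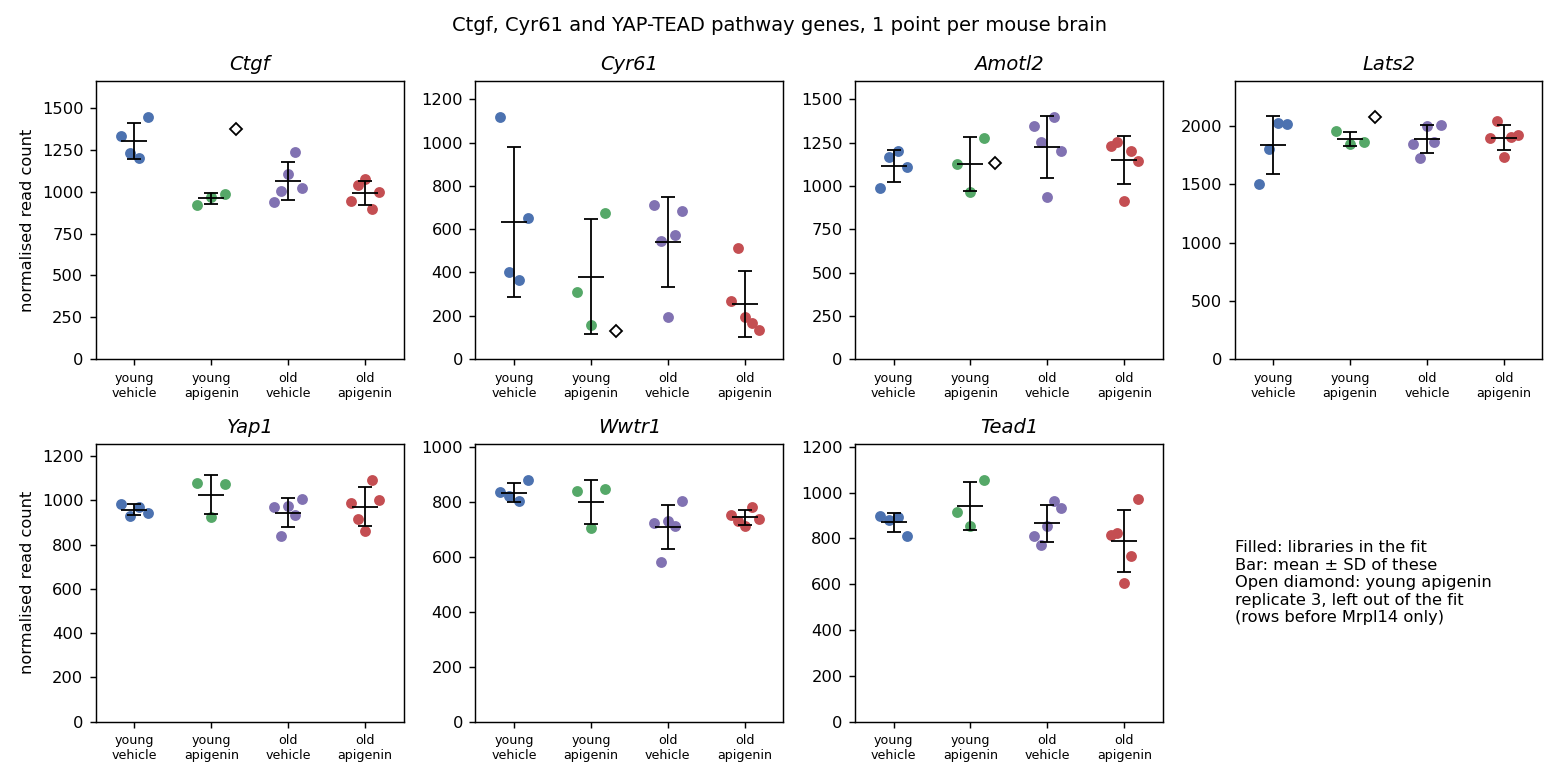
Normalised read counts of the 7 genes (y axis, from 0) in the 4 groups (x axis), 1 filled point per library with the mean and SD, and an open diamond for young apigenin replicate 3 where it can be read. For Ctgf the 3 filled young apigenin points lie between 922 and 987 and the diamond at 1375, among the young vehicle points, while Cyr61 is widely spread in every group.

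Markers of layer 6b neurons, among which Ctgf is counted in cortex, are given beside these levels. The summed level of 7 such genes other than Ctgf was 7312 to 8224 in young vehicle and 6832 to 7192 in old vehicle libraries. Nr4a2 (2328 to 2880) and Hs3st4 (2202 to 2357) were the largest of the 7 in young vehicle libraries, so the sum leans on them. By symbol Nr4a2 belongs with Nr4a1, which stands in the immediate early list read below, so the sum need not reflect layer 6b content alone. In the 3 young apigenin libraries Nr4a2 held 1808 to 2306, below every young vehicle library, and Hs3st4 1749 to 2495. Groups did not overlap there in either direction for 7.31% of tested genes. The vehicle groups did not overlap in this sum, as was the case in either direction for 10.1% of single tested genes. With apigenin it was 6671 to 7611 in young and 6053 to 7105 in old mice, and 0 of the 7 genes passed in limma in any comparison, where at most 3.93% of all genes did, so the count is no result about the markers. Cplx3, a complexin of these neurons, averaged 457 ± 67.8 in young vehicle, 390.2 ± 53.1 in young apigenin, 410.1 ± 62.7 in old vehicle and 350.02 ± 38.5 in old apigenin mice (SD, n = 4, 3, 5 and 5). Nxph4, which encodes a neurexophilin, averaged 696 ± 91.2, 658 ± 116, 533 ± 96.9 and 548 ± 171 in the same order. In young apigenin replicate 3 the 3 genes of the list that can be read, Cplx3, Moxd1 and Hs3st4, held 479, 316 and 2306, and the first 2 lay above the other 3 young apigenin libraries as Ctgf did. The part of layer 6b content in the Ctgf levels was not tested. Within groups the libraries' mean for the 7 markers had r = 0.08 with Ctgf over 17 libraries.

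Cyr61 was by far the most variable of the 7 genes. Young vehicle libraries held 1117, 401, 367 and 653, and old vehicle libraries 713, 545, 194, 572 and 686. Young apigenin libraries held 308, 158 and 675, and old apigenin libraries 266, 513, 195, 165 and 135. High and low libraries occurred in every group, and all groups overlapped. Its coefficient of variation over the 17 libraries was 59.5%, where the other 6 genes had 7.17% to 14.6%. Counting error was smaller than this, with 137 reads in the library with the fewest and a counting error of 8.54% there.

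Cyr61 did not pass with age in vehicle mice, at a mean of 542 ± 207 (SD, n = 5) against 635 ± 346 (SD, n = 4) in young mice and a log2 difference of -0.21 (95% interval -1.20 to 0.77, limma adjusted p = 0.845). Its sign turned without old vehicle replicate 3 (0.13) or young vehicle replicate 1 (0.11). In old mice given apigenin it averaged 254.9 ± 152 (SD, n = 5) against 542 ± 207 (SD, n = 5) in vehicle mice. That log2 difference of -1.12 ± 0.44 (SE) did not pass (limma unadjusted p = 0.0207, adjusted p = 0.986; exact two-sided permutation p = 0.0556). In this comparison 0% of the 15808 genes passed, and 381 had an unadjusted p under 0.05. In young mice the difference of the apigenin and vehicle means was -0.84, given without a test. It was -0.33 without young apigenin replicate 2, -1.37 without young apigenin replicate 4, -0.52 without young vehicle replicate 1 and -1.16 with young apigenin replicate 3 added. Young apigenin replicate 3 held 130.2, the lowest Cyr61 value of all libraries. Old against young apigenin mice differed by -0.50 (95% interval -1.57 to 0.57, limma adjusted p = 0.728). That sign turned without young apigenin replicate 4 (0.04).

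**Figure D2:**
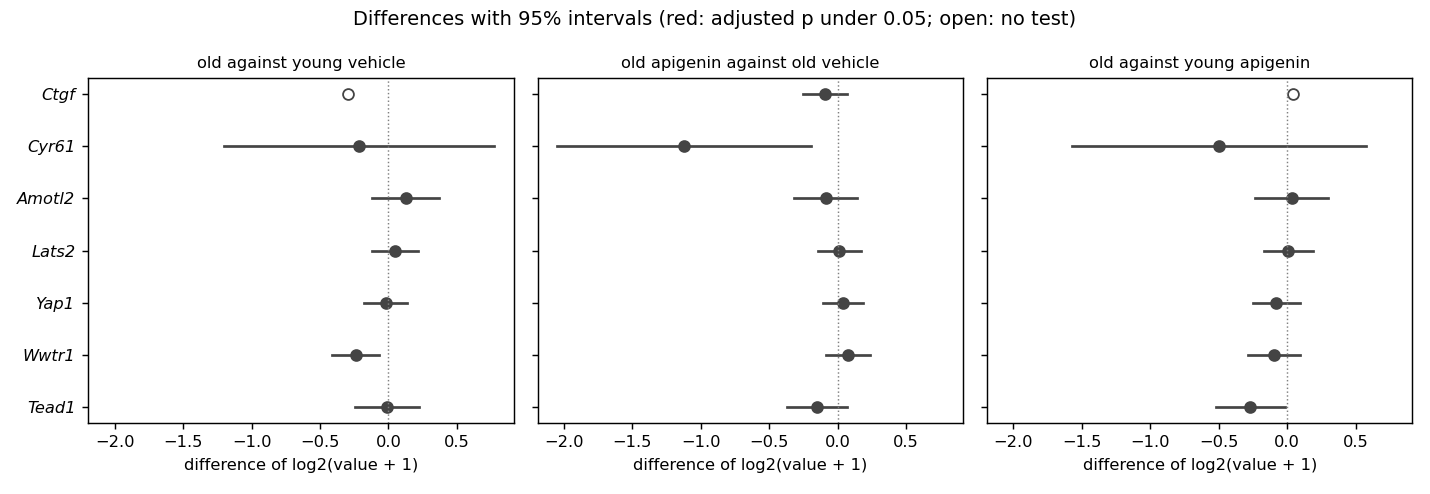
Difference of log2(value + 1) (x axis) for the 7 genes (y axis) in 3 comparisons, with the 95% interval from limma, in red where the adjusted p was under 0.05 and open where no test was made. No point is red, the age differences of Ctgf, -0.30 in vehicle and 0.04 in apigenin mice, are open because those libraries chose the gene, and the intervals of Cyr61 are several times wider than those of the other genes.

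The level of Cyr61 moved with the immediate early genes. Dusp1, a phosphatase of MAP kinases, had the highest r to Cyr61 of all named genes over deviations from the group means in the 17 libraries, at 0.969. Btg2, an antiproliferative gene, and Junb, an AP-1 subunit, followed at 0.956 each, then Apold1, an endothelial early response gene, at 0.952 and the transcription factor gene Klf2 at 0.946. These 5 were picked from 15808 genes for their r, so its size is a description only, and the points share library and depth. For the list of 14 immediate early genes the median r with Cyr61 was 0.86, against 0.01 over all tested genes. All 14 lay above 0, from Fosb at 0.22 to Dusp1 at 0.97. The list was not picked by r, but it holds Dusp1, Btg2 and Junb and was written with earlier results of these data known. The libraries' mean over the list had r = 0.955 with Cyr61 and a Spearman's rho of 0.934, and r = 0.930 without the 2 libraries farthest from the median. For Ctgf the median r with the same list was 0.17, and Ctgf and Cyr61 had r = 0.12 with each other.

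In young apigenin replicate 3, which entered none of these correlations, Cyr61 lay below the other 3 young apigenin libraries. Of the 5 genes most like Cyr61, 2 did so too, Btg2 at 328 and Junb at 1907, and 3 lay inside their range. Apold1 at 189 and Klf2 at 501 were among the latter, Klf2 also inside the young vehicle range of 479 to 936. A single library gives a description, not a test. Dusp1 held 1130.1, inside the range of the other young apigenin libraries (972 to 3159) and below every young vehicle library. Of the 12 immediate early genes that can be read there, 3 lay below the other young apigenin libraries, 9 within their range and 0 above.

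The summed level of the immediate early list in young mice was 51533 to 75302 with vehicle and 27034 to 51186 with apigenin, and in old mice 30259 to 53983 with vehicle and 24053 to 43159 with apigenin. In old mice 13 of its 14 genes had a negative difference between apigenin and vehicle, with a median of -0.68 where the median over all tested genes was 0.01, and 0 of 14 passed. Npas4, a neuronal activity-dependent transcription factor gene, differed by -1.16, Arc, which encodes a postsynaptic activity-regulated protein, by -0.67 and Junb by -0.66 (limma adjusted p = 0.986 for each). With age in vehicle mice the median was -0.30, against 0.04 over all tested genes, and 0 of 14 passed, where 3.93% of all tested genes did, with Fosb at -0.64 (adjusted p = 0.0541) and Egr1 at -0.44 (adjusted p = 0.100). The part of immediate early induction in the Cyr61 differences was not tested.

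**Figure D3:**
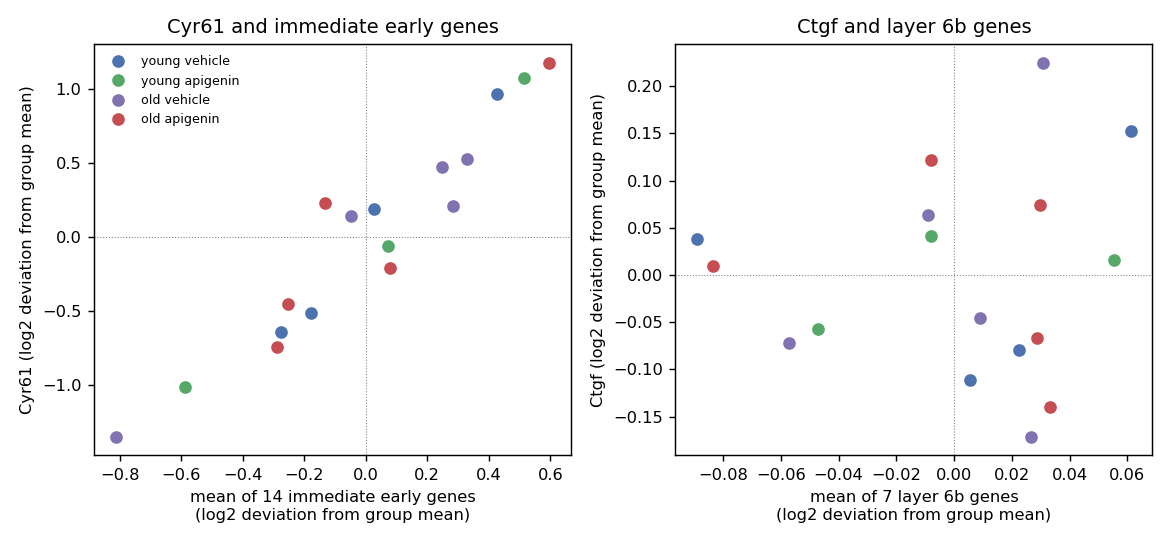
Left, the log2 deviation of Cyr61 from its group mean (y axis) against the mean deviation of 14 immediate early genes (x axis). Right, Ctgf against 7 layer 6b genes in the same way. Each point is 1 of 17 libraries, coloured by group, and the left points follow a line (r = 0.955) while the right points do not (r = 0.08).

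Of the coactivators and TEAD1, none passed in limma in any comparison tested, and Wwtr1 had the largest age difference in vehicle mice. Yap1 held 983, 929, 972 and 945 in young vehicle, 1079, 925 and 1074 in young apigenin, 972, 840.2, 975, 935 and 1005 in old vehicle, and 989.7, 917, 861, 1093 and 1002 in old apigenin libraries. All 4 groups overlapped. With age in vehicle mice Yap1 differed by -0.02 (95% interval -0.18 to 0.14), with apigenin in old mice by 0.04 (-0.11 to 0.19) and with age in apigenin mice by -0.08 (-0.25 to 0.09), and none passed in limma (adjusted p = 0.912, 0.986 and 0.731).

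Wwtr1, the gene of TAZ, held 836, 822, 803 and 881 in young vehicle and 723, 582, 733, 712 and 802.8 in old vehicle libraries. Every old vehicle library lay below every young vehicle library, the closest pair being 803.03 and 802.8, as was the case in either direction for 10.1% of tested genes. The mean was 711 ± 80.1 (SD, n = 5) in old and 835 ± 33.3 (SD, n = 4) in young vehicle mice, a log2 difference of -0.24 ± 0.08 (SE). It did not pass over all genes (limma adjusted p = 0.112; exact two-sided permutation p = 0.0159, the smallest this design gives), although DESeq2 called it (adjusted p = 0.0298). In apigenin mice the age difference was -0.10 (95% interval -0.29 to 0.09), with 842, 707 and 849 in young and 753, 733, 714, 784 and 739 in old libraries, which overlapped. With apigenin in old mice Wwtr1 differed by 0.07 (95% interval -0.09 to 0.24, limma adjusted p = 0.986).

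Tead1 held 899, 878, 895 and 809 in young vehicle and 809.8, 771, 853, 965 and 932 in old vehicle libraries, a log2 difference of -0.01 (95% interval -0.24 to 0.22). Young apigenin libraries held 916, 852 and 1055, and old apigenin libraries 814, 823, 605, 721 and 972. The lowest Tead1 value of all, 605, was in old apigenin replicate 3. Old against young apigenin mice differed by -0.27 ± 0.12 (SE), which did not pass (limma adjusted p = 0.320), where 1.76% of all tested genes passed. In that comparison the groups overlapped for each of the 7 genes, and did not for 9.45% of tested genes. The other TEAD genes were low, with means over 17 libraries of 89.5 for Tead2, 110.5 for Tead3 and 57.4 for Tead4. Per kilobase of exon these were 18.7, 16.5 and 15.9, against 63.2 for Tead1, and 0 of the 3 passed in any comparison.

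Lats2, a kinase of the pathway, and Amotl2 did not pass in any comparison either. Lats2 held 1504, 1802, 2029 and 2017 in young vehicle, 1956, 1845 and 1860.4 in young apigenin, 1850.01, 1725, 2002, 1859 and 2010.4 in old vehicle, and 1898, 2044, 1736, 1906 and 1923 in old apigenin libraries. Young vehicle replicate 1 was the lowest and the groups overlapped. Its log2 differences were 0.05 with age in vehicle mice (95% interval -0.12 to 0.21) and 0.01 with apigenin in old mice (-0.15 to 0.17).

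Amotl2 held 990.8, 1169, 1202 and 1109 in young vehicle, 1126, 967 and 1279 in young apigenin, 1344, 1254, 938, 1397 and 1201 in old vehicle, and 1231, 1255, 916, 1202 and 1145 in old apigenin libraries. Old vehicle replicate 3 and old apigenin replicate 3 were low in their groups. The log2 difference with age in vehicle mice was 0.12 (95% interval -0.12 to 0.37), and with apigenin in old mice -0.09 (-0.32 to 0.14). In young apigenin replicate 3 Amotl2 held 1135, inside the range of the other 3, and Lats2 2075, above their highest value of 1956.

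Within groups, Yap1 and Wwtr1 went together most of the 21 pairs of the 7 genes, with r = 0.79 over 17 libraries. Cyr61 and Amotl2 had r = 0.50, Yap1 and Tead1 0.49, and Tead1 and Amotl2 0.47. The median over the 21 pairs was 0.24. Ctgf had r from -0.34 with Yap1 to 0.12 with Cyr61, so its deviations did not follow those of any other of the 7 genes closely.

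The wider pathway and genes beside it were read from 7 lists that hold 78 genes, of which 75 were tested. Among the lists are 14 immediate early genes and 10 TGF-beta ligands, receptors and response genes, so counts over all lists are not counts of Hippo, YAP and TEAD genes alone. With age in vehicle mice 1 of the 74 other than Ctgf rose and 1 fell in limma, beside 3.93% of all tested genes called. With so few calls the count is no result about the lists. The count and its split depended on the method. Both edgeR and quantile normalisation called 0 higher and 3 lower, beside 3.20% and 2.81% of all genes. DESeq2 called 1 higher and 7 lower, beside 6.51%. The median over all genes was 0.04 in limma, 0.01 with edgeR or DESeq2 and -0.0039 with quantile normalisation. Of 7 Hippo core kinases and adaptors Stk4, which encodes the kinase MST1, fell 1.17-fold from 1897 ± 26.5 (SD, n = 4) to 1620 ± 94.9 (SD, n = 5; limma adjusted p = 0.0282). It held 1465 to 1726 in old vehicle and 1559 to 1785 in old apigenin libraries, below all young libraries at 1833 to 1939. Old and young groups did not overlap in either direction for 10.1% of tested genes in vehicle mice and 9.45% in apigenin mice. The age difference of Stk4 in apigenin mice was -0.18 (limma adjusted p = 0.160). The Stk4 call in vehicle mice was lost without old vehicle replicate 1 or 2 and without any 1 of the 4 young vehicle libraries (adjusted p = 0.0531 to 0.0871), and with only the 2 groups in the fit (0.0596).

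Of 10 TGF-beta ligands, receptors and response genes Tgfbr1, the type I receptor, rose 1.20-fold with age in vehicle mice from 738 ± 53.2 (SD, n = 4) to 885 ± 57.6 (SD, n = 5; limma adjusted p = 0.0424). That call was lost without old vehicle replicate 2, 4 or 5, or any 1 young vehicle library (adjusted p = 0.0528 to 0.146). It was also lost with edgeR (0.0900), quantile normalisation (0.120), the replicate block (0.0981) or only the 2 groups (0.0851). In apigenin mice the age difference of Tgfbr1 was 0.28 (limma adjusted p = 0.0752), from 788 ± 14.9 (SD, n = 3) to 957 ± 66.3 (SD, n = 5). Of the YAP and TAZ target genes other than Ctgf 0 passed, and the 21 tested had a median of -0.02 where the median over all tested genes was 0.04. Ccdc80, named after its values were seen, had the most negative difference of that list, -0.49 (limma adjusted p = 0.0578, called by edgeR and DESeq2), and Foxf2, named in the same way, the most positive, 0.44 (adjusted p = 0.0982). Of 17 upstream regulators and 8 tested factors and cofactors 0 passed in the main fit, with medians of -0.06 and -0.03. Taok3, an upstream regulator, differed by -0.15 (limma adjusted p = 0.0555) and was called by edgeR, DESeq2 and quantile normalisation.

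With apigenin in old mice 0 of the 75 genes passed. In limma 10 had an unadjusted p under 0.05, where 381 of all 15808 tested genes did. Of these 10, 9 were immediate early genes and the other was Cyr61. Cyr61 and that list moved together within groups (median r = 0.86), so the 10 are not separate results. The medians were -0.01 for the YAP and TAZ targets, -0.02 for the core kinases and 0.06 for the factors and cofactors, near the 0.01 of all tested genes. With age in apigenin mice 1 of the 74 genes other than Ctgf rose and 1 fell, a share near the 1.76% called among all tested genes. Taok3, a kinase upstream of the Hippo core, fell 1.18-fold from 3182 ± 64.1 (SD, n = 3) to 2691 ± 68.8 (SD, n = 5; limma adjusted p = 0.00898), a call lost without young apigenin replicate 2 or 4 (0.0677 and 0.0502) and with only the 2 groups (0.0888). Tgfb1, a TGF-beta ligand gene, rose 1.26-fold from 279 ± 13.9 (SD, n = 3) to 353 ± 26.3 (SD, n = 5, limma adjusted p = 0.0396). In vehicle mice it averaged 333 ± 12.8 in young and 327 ± 10.8 in old mice (SD, n = 4 and 5), a log2 difference of -0.02. The call in apigenin mice was lost without any 1 of the libraries but old apigenin replicates 2 and 5 (adjusted p = 0.0663 to 0.177). It was also lost without the filter (0.0565), with edgeR (0.0587), quantile normalisation (0.114), the replicate block (0.0958) or only the 2 groups (0.208).

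**Figure D4:**
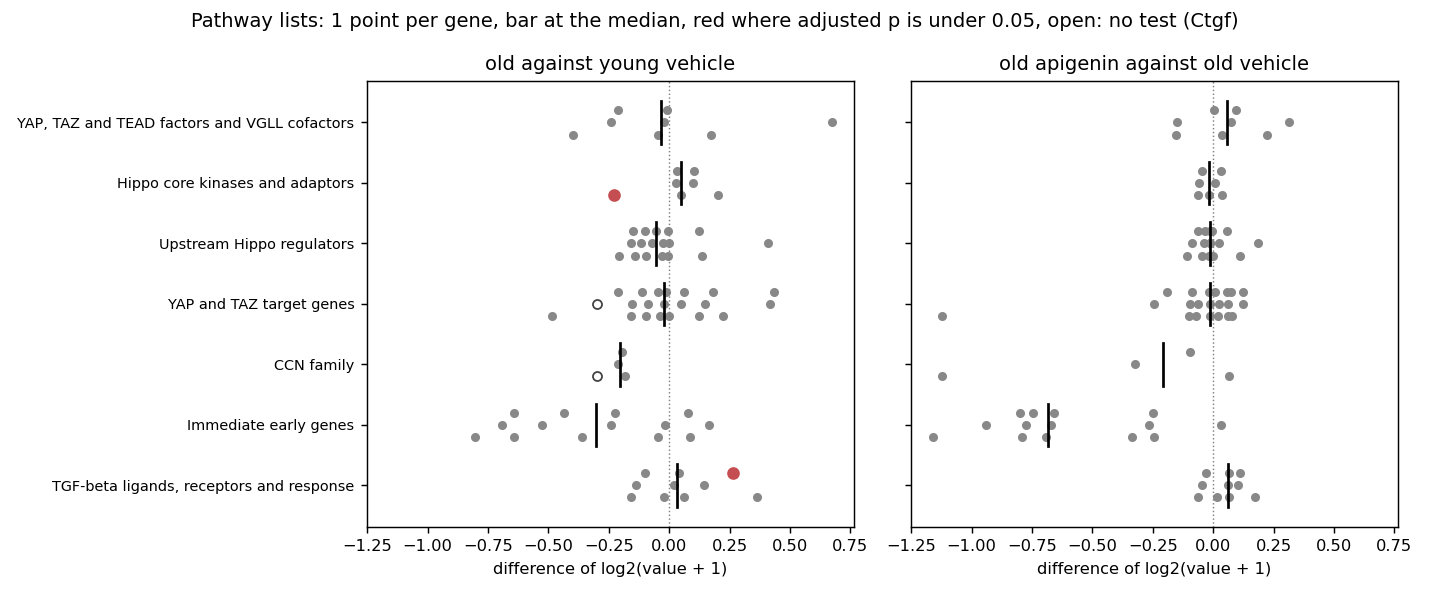
Difference of log2(value + 1) (x axis) for each tested gene of the 7 lists (y axis), with age in vehicle mice on the left and with apigenin in old mice on the right, a bar at each median red points where the adjusted p was under 0.05, and an open point for Ctgf, not tested with age. The medians of the Hippo, YAP and TAZ lists lie near 0 on both sides, and the immediate early list lies at -0.30 on the left and -0.68 on the right.

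The other CCN genes were read beside Ctgf and Cyr61. Nov was the most abundant of the family, at 1051 per kilobase of exon over the 17 libraries against 377 for Ctgf. Its mean was 3252 ± 746 (SD, n = 4) in young vehicle and 2820 ± 210 (SD, n = 5) in old vehicle mice, a log2 difference of -0.18 (limma adjusted p = 0.412). Wisp1 was low, at 66.4 to 245 across the 17 libraries, and Wisp2, with a mean of 6.12, did not pass the filter.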

How the data were processed

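Polyadenylated RNA of each brain was sequenced. The authors deposited 1 table of normalised signal. The submitters' processing notes name STAR, DESeq2 and mm10 without versions, while the counter and its annotation were not given in the sources used here. Deposited signal values were read as reads divided by a library factor, because every value above 0 is a whole multiple of its column's step within 0.01 of a read (100%), and whole reads were recovered. The table has 24411 rows; the last 6 were set aside because only 1 column keeps its step in them. Values were tested as log2(value + 1) with limma 3.58.1 (R 4.3.3). The model held the 4 groups of the 17 libraries, with a mean-variance trend, genes with a mean of at least 10, two-sided p-values and Benjamini-Hochberg adjustment over all genes at 0.05. edgeR 4.0.16 and DESeq2 1.42.0 on recovered reads were alternatives, as were other pseudocounts, filters, scaling, samples and each library left out. Exact permutation tests were computed for 14 comparisons of the 7 genes. Differences understate changes of low genes. The fits were tested on simulated data. Coordinates and exon lengths are from GENCODE M21 (GRCm38), where Ctgf and Cyr61 are listed as Ccn2 and Ccn1.

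Members, lists and tests were chosen with earlier results of these data known. Named genes were the 7, up to 4 genes that passed per list, the CCN and TEAD genes, and the genes most like Ctgf (5 highest, 3 lowest r) and Cyr61 (5 highest) without predicted genes. Single layer 6b and immediate early genes (Cplx3, Nxph4, Npas4, Arc, Fosb and Egr1) were named after their values were seen. The labels do not say whether a replicate number marks a shared litter or day, so the main model held no block. The age difference of Ctgf in vehicle mice was planned as a test and is given as a description, since its young vehicle libraries also entered the choice of the gene.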

Additional observations from a re-analysis of the deposited data

Results flagged for a closer look

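Among 13 genes in 39 groups of 4 or 5 libraries, 2 values stood far from the others of their group, where chance gives about 1 in 20 groups. Wisp1, a CCN family gene, held 244.6 in young vehicle replicate 1, against 100.8 to 117.4 in the other young vehicle libraries. Tead4 held 10.6 in the same library, against 55.1 to 58.8 in the other 3.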

How the results depend on the processing

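With age in vehicle mice the count of the 7 genes called was 1, Ctgf, where 3.93% of all tested genes were called. The young vehicle libraries helped to choose Ctgf, so this count is no independent test. It was 0 without the filter on low values, with the replicate block, with young apigenin replicate 3 (4 genes fitted) and with only the 2 groups compared, 2 with DESeq2 (Ctgf and Wwtr1), and 0 to 1 without single libraries. The pathway count of 3 among 75 genes tested also holds Ctgf. It became 1 with the replicate block and 1 with only the 2 groups. In the rows up to Mrpl14 without young apigenin replicate 3 it was 1 (38 genes, added after seeing the data). It was 9 with DESeq2 (1 higher, 8 lower, Ctgf included), and 0 to 4 without single libraries. With age in apigenin mice the count of 2 over the lists became 1 without the filter, 1 with quantile normalisation, 1 with edgeR and 0 with only the 2 groups. With DESeq2 it was 2 higher and 1 lower (Taok3, Tgfb1 and Tgfbr1), and the replicate block called Atf3 in place of Tgfb1. In the rows up to Mrpl14 (38 genes) the count was 0 with young apigenin replicate 3 or without it, the latter fit added after seeing the data. Without single libraries the count was 0 to 2. The cause of these changes was not tested, except that the rows up to Mrpl14 hold fewer genes. With apigenin in old mice both counts were 0 under every alternative run. The young difference of Ctgf moved from -0.44 to -0.31 with young apigenin replicate 3, and ran from -0.47 to -0.39 without single libraries. The r of Ctgf with Srsf12 ran from 0.75 to 0.90 and that of Cyr61 with Dusp1 from 0.96 to 0.98 without single libraries. Same-numbered libraries of different groups had a median r of 0.00213 in their deviations (-0.254 to 0.307, 22 pairs). Differently numbered ones had a median of -0.00194 (-0.408 to 0.6, 85 pairs). Such values cannot exclude a shared litter or day behind a replicate number, which the labels do not state. The replicate block also ended the calls of Tgfbr1 (adjusted p = 0.0981) and Tgfb1 (0.0958). With 3 to 5 mice a group, an interval that holds 0 leaves both directions possible. Differences that did not pass changed sign without single libraries: with age in vehicle mice Cyr61 (-0.43 to 0.13), Yap1 (-0.0432 to 0.0214), Tead1 (-0.0514 to 0.0293) and Lats2 (-0.0451 to 0.0989), with apigenin in old mice Yap1 (-0.0046 to 0.0812) and Lats2 (-0.0227 to 0.0419), and with age in apigenin mice Cyr61 (-1.01 to 0.0382), Amotl2 (-0.0706 to 0.131) and Lats2 (-0.0174 to 0.0416). Lats2 with apigenin in old mice was -0.00076 with edgeR and -0.0025 with DESeq2, and with age in apigenin mice -0.0197 with the replicate block and -0.0250 with young apigenin replicate 3.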

Other observations

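By deviations from the group means over 17 libraries, the named genes most like Ctgf were Srsf12, a splicing regulator gene (r = 0.83), Cwh43 (0.81), Fancd2, a DNA crosslink repair gene (0.79), Traf5 (0.77) and Runx2, a transcription factor gene (0.77). The most opposed were Nr1i3, a nuclear receptor gene (-0.79), Cdh22, a cadherin gene (-0.77), and Zfp947 (-0.76). They were picked from 15808 genes for their r. Cwh43 was the only one of the 5 most like Ctgf whose r stayed near this size with the group differences left in, at 0.82, where the other 4 lay at 0.23 to 0.34. In young apigenin replicate 3, which the correlations did not use, Cwh43 held 56.1, above the other 3 young apigenin libraries (33.8 to 50.3), as Ctgf did, while Fancd2 at 68.8 lay within their range (63.3 to 85.1).

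Among marker lists, the median r with Ctgf was 0.44 for 8 cortical neuron genes (all 8 above 0), 0.30 for 10 mural cell genes, -0.48 for 10 astrocyte genes, -0.51 for 8 choroid plexus genes and -0.32 for 11 hindbrain and spinal cord genes (0 of 11 above 0), against 0.01 over all tested genes. For Cyr61 these medians were -0.09, -0.28, 0.01, 0.51 and 0.06. Genes of a list share libraries and cells, so these are descriptions with n = 17 libraries.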
